A study of Rattus norvegicus with 24 samples.

Results

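The miRNAs miR-451, miR-144 and miR-486 are known from red blood cells. Every array entry with the stem rno-miR-451, rno-miR-144 or rno-miR-486 was taken, whichever arm of the hairpin it names. The rule used names only and no measured value. It found 4 of the 719 rat miRNAs on the array, rno-miR-451-5p, rno-miR-451-3p, rno-miR-144-3p and rno-miR-144-5p, and 3 of them were among the 283 miRNAs that passed the filter on dim probes. rno-miR-486 is not analysed here. Total RNA from the lung of 24 Fischer-344 rats, about 7 to 8 weeks old, was hybridised to single-colour arrays, 1 array for each rat. The control rats breathed filtered clean air, and the exposed rats inhaled hexanal, a volatile aldehyde, at 600, 1000 or 1500 ppm for 4 h a day on 5 days a week over 5 weeks. Each of the 4 groups held 6 rats, 3 males and 3 females, and the labels name no transgene, deletion or second treatment in any of them. The titles state the doses in ppm and the protocol states the same numbers in mg per cubic metre, so ppm serves here as a name for the dose. The labels do not say whether the lungs were flushed of blood before the RNA was extracted.

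The red blood cell loses its nucleus as it matures but keeps a set of small RNAs, and miR-451, miR-144 and miR-486 are the best known among them. miR-144 and miR-451 are made from neighbouring hairpins of a single primary transcript that the erythroid factor GATA1 switches on. miR-451 is the known case of a miRNA cut by the Argonaute protein Ago2 instead of Dicer, so that its mature strand runs through the loop of the hairpin and its other arm is hardly made. miR-144 is cut by Dicer in the usual way. In mice, loss of the pair leaves red cells open to oxidative damage. Their signal in a tissue such as lung is commonly taken as coming mostly from the blood it holds, and in whole tissue fewer red cells and less miRNA in each red cell cannot be told apart.

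The mature sequences are shown because the members are measured by base pairing alone and their seeds set which messages they pair with. RefSeq held all 4 members of the array, on the assembly GRCr8. Capitals mark the seed, bases 2 to 8 from the 5′ end.
rno-miR-451-5p: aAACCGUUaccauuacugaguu
rno-miR-451-3p: aUGGUAAUgguucucuugcugcu
rno-miR-144-3p: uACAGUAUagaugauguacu
rno-miR-144-5p: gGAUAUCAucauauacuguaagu
No seed was shared between members, and none was shared with another of the 693 mature rat miRNA names of the table. Over bases 2 to 7 the seed of rno-miR-144-3p also stands in 2 others, rno-miR-101a-3p and rno-miR-101b-3p, and that of rno-miR-451-3p in 1 other, rno-miR-1193-5p.

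The hairpins show how the arms are placed. Mir144 lies at chr10:63459397-63459479 and Mir451a at chr10:63459569-63459640, both on the plus strand of GRCr8, with 89 bases between them. Capitals mark the arms of miR-144 in the first and the 5p arm of miR-451 in the second.
Mir144: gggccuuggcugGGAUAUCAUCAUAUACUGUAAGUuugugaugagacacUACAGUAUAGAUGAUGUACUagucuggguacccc
Mir451a: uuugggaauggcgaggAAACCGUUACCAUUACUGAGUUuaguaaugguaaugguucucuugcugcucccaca
Folded with RNAfold, the Mir451a hairpin of 72 bases had a loop at bases 35 to 38, and all 4 loop bases belonged to the 5p arm, which spans bases 17 to 38. In the Mir144 hairpin of 83 bases the loop lay at bases 38 to 43, between the 5p arm, which ends at base 35, and the 3p arm, which starts at base 50.

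The arms differed in whether they could be measured at all. rno-miR-451-5p and rno-miR-144-3p were well above background on 24 of 24 arrays, with 100% of their spots above it, and they are called the pair below. rno-miR-451-3p was above background on 0 of 24 arrays and in 0 of 452 spots. Its scaled intensity ran from -3.15 to 1.18, under the 11.3 at which spots began to stand above background, so it was not well above background in any rat and is given no level. rno-miR-144-5p was in between, with 1 of its 2 probes kept and at least 1 of the 2 above background on 10 of 24 arrays. These were 3 control arrays, 1 at 600 ppm, 4 at 1000 ppm and 2 at 1500 ppm, and they came from 9 males and 1 female. Of the glass slides described below, slide 1, which held males only, had 6 of them, slide 2 had 3 and slide 3 had 1. Levels below are scaled intensities, which compare rats for 1 miRNA and do not rank the miRNAs against each other.

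The 24 arrays were run on 3 glass slides of 8, and the slides were not balanced over the groups. Slide 1 held males only, 3 controls, 3 at 600 ppm and 2 at 1000 ppm. The other 4 males (1 at 1000 ppm, 3 at 1500 ppm) were on slide 2 with 3 control females and 1 female of the 600 ppm group. The remaining 8 females made up slide 3, with 2 rats of the lowest dose and 3 of each higher one. The control group was therefore split by sex over slides 1 and 2, so results are given with and without slide in the fit. On the arrays, 27.9% to 38.5% of spots were well above background and no spot was saturated. Of the markers of other tissues, 0 of 2 brain, 4 of 7 striated muscle and 1 of 1 liver miRNAs passed the filter, and all 8 lung epithelium miRNAs were above background on all 24 arrays.

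No member was called different from clean air at any dose, and the values of the exposed rats lay within or near those of the controls. For rno-miR-451-5p the lowest, median and highest scaled intensity were 948, 1483 and 2601 in the 6 control rats, 1343, 1889 and 2434 at 600 ppm, 1554, 1781 and 2364 at 1000 ppm, and 923, 1590 and 2125 at 1500 ppm. The exposed groups lay inside the range of the control rats at 600 and 1000 ppm, and at 1500 ppm only the lowest rat fell under it. That range joins 3 males on slide 1 (1761 to 2601) and 3 females on slide 2 (948 to 1204). The lowest exposed female had 1343 at 600 ppm, 1646 at 1000 ppm and 1233 at 1500 ppm, above all control females. Apart from female 26, the exposed females were on slide 3. Males at 600 ppm (1732 to 2434) overlapped the control males. The log2 difference from control was 0.33 ± 0.22 (SE, n = 6 against 6) at 600 ppm, 0.32 ± 0.22 at 1000 ppm and 0.02 ± 0.22 at 1500 ppm, with limma adjusted p of 0.996, 0.812 and 0.992. The 95% intervals were -0.13 to 0.79, -0.13 to 0.78 and -0.44 to 0.47 on the log2 scale. The background was the same, since limma called 0 of 283 miRNAs (0%) at each dose, while 5, 17 and 26 of them had an unadjusted p under 0.05 and none of these was a member.

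For rno-miR-144-3p the lowest, median and highest scaled intensity were 128, 264 and 548 in control rats, 194, 302 and 537 at 600 ppm, 233, 270 and 454 at 1000 ppm, and 123, 223 and 292 at 1500 ppm. The control range was again the widest and covered all exposed rats except the lowest at 1500 ppm. It again joined males on slide 1 (360 to 548) and females on slide 2 (128 to 168). The lowest exposed female had 194 at 600 ppm, 233 at 1000 ppm and 172 at 1500 ppm, above all control females. Males at 600 ppm (345 to 537) overlapped the control males. The log2 differences were 0.29 ± 0.33, 0.24 ± 0.33 and -0.27 ± 0.33 (SE, n = 6 against 6), with limma adjusted p of 0.996, 0.991 and 0.742 and a 95% interval of -0.95 to 0.41 at 1500 ppm. Exact permutation of 6 against 6 rats gave two-sided p of 0.496, 0.561 and 0.515 for rno-miR-144-3p and 0.234, 0.201 and 0.939 for rno-miR-451-5p. The 3 comparisons share their control rats. The slope per 1000 ppm was 0.02 ± 0.15 for rno-miR-451-5p and -0.16 ± 0.22 for rno-miR-144-3p (log2, SE, n = 24), and limma called neither, with 0 of 283 called in all (0%) and 29 at an unadjusted p under 0.05.

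**Figure D1:**
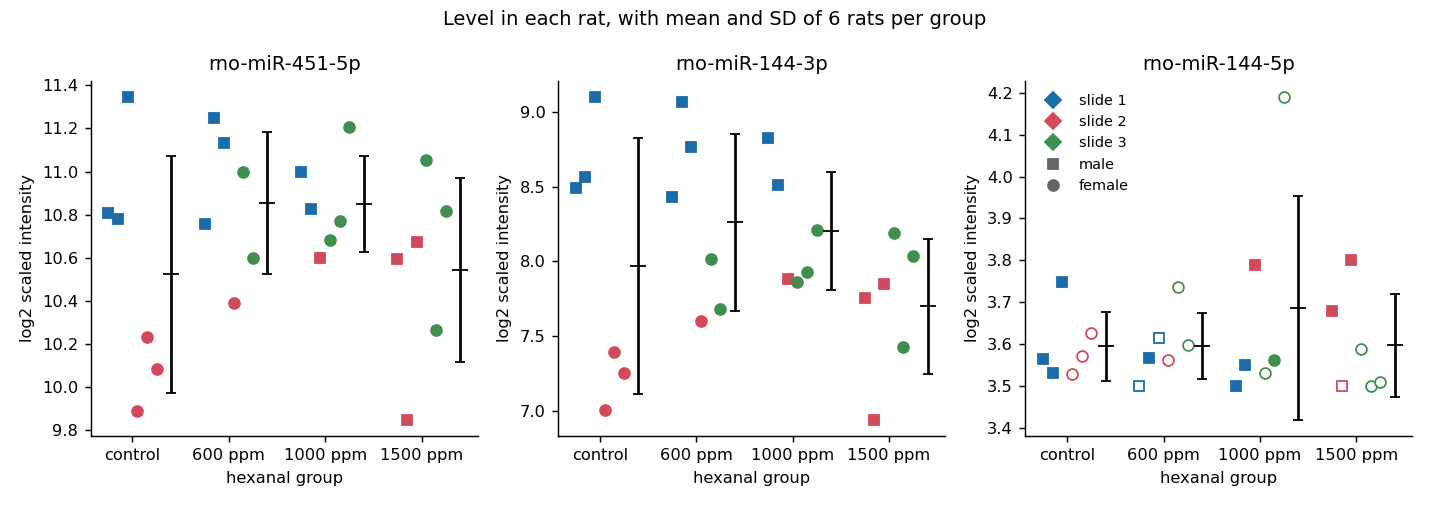
Log2 scaled intensity (y axis) of the 3 measurable members in each rat by hexanal group (x axis), coloured by slide, with squares for males and circles for females, and the mean and SD of 6 rats as a black bar. Open symbols in the panel of rno-miR-144-5p are arrays where it was not well above background, and the control rats split into 3 high males on slide 1 and 3 low females on slide 2 for rno-miR-451-5p and rno-miR-144-3p.

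With slide as a block, the differences at 600, 1000 and 1500 ppm were 0.19 ± 0.17, 0.22 ± 0.18 and 0.14 ± 0.18 for rno-miR-451-5p and 0.17 ± 0.18, 0.26 ± 0.19 and 0.17 ± 0.19 for rno-miR-144-3p (log2, SE, n = 6 against 6). Sex was not in this fit. Only slide 2 held both control rats and rats at 1500 ppm. There the controls were 3 females and the rats at 1500 ppm 3 males, so on that slide dose and sex could not be told apart. The value of rno-miR-144-3p at 1500 ppm changed sign, and limma called no member and 0 of 283 miRNAs (0%) at any dose, with 23, 24 and 24 at an unadjusted p under 0.05. Comparisons inside single slides were as small. Among the slide 1 males, 3 rats at 600 ppm differed from 3 controls by 0.07 ± 0.19 for rno-miR-451-5p and 0.04 ± 0.22 for rno-miR-144-3p, against a background of 0.353%. At 1000 ppm the 2 slide 1 males differed from the controls by -0.07 ± 0.21 and -0.05 ± 0.25. Among the slide 3 females, which have no controls, the 3 rats at 1500 ppm differed from the 2 at 600 ppm by -0.09 ± 0.27 and 0.03 ± 0.24, and from the 3 at 1000 ppm by -0.18 ± 0.24 and -0.12 ± 0.22. The 3 rats at 1000 ppm differed from the 2 at 600 ppm by 0.09 ± 0.27 and 0.15 ± 0.24. In these last 4 comparisons 0 of 283 miRNAs (0%) were called by limma, with 13 to 37 at an unadjusted p under 0.05.

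**Figure D2:**
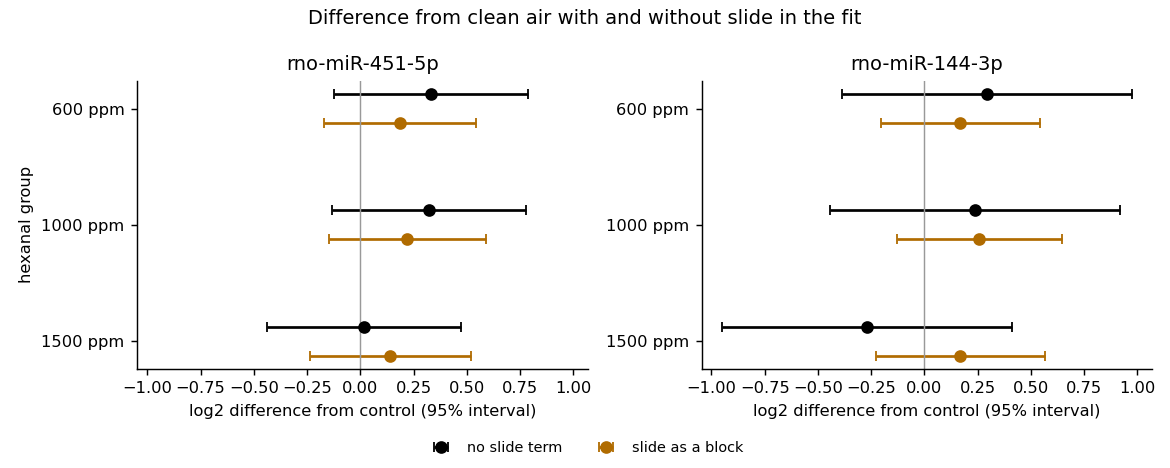
Log2 difference from the control rats (x axis) at each hexanal dose (y axis) for rno-miR-451-5p and rno-miR-144-3p, as a point with its 95% interval, in the fit without slide (black) and with slide as a block (brown). Every interval spans 0, and the point of rno-miR-144-3p at 1500 ppm moves from -0.27 to 0.17 when slide is in the fit. Sex is in neither fit.

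The level of the pair followed the slide. For rno-miR-144-3p the lowest, median and highest scaled intensity were 345, 406 and 548 on slide 1, 123, 181 and 236 on slide 2, and 172, 252 and 297 on slide 3. The 8 rats of slide 1 were above all 16 others, while slides 2 and 3 overlapped. For rno-miR-451-5p the values were 1732, 1931 and 2601 on slide 1, 923, 1274 and 1634 on slide 2, and 1233, 1777 and 2364 on slide 3. In these values, each an average of 2 probes, slides 1 and 2 did not overlap, and slide 3 overlapped with each of them.

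Within males, slide 1 (8 rats) exceeded slide 2 (4 rats) by 1.11 ± 0.17 for rno-miR-144-3p and 0.56 ± 0.16 for rno-miR-451-5p (log2, SE, limma adjusted p = 9.94e-06 and 0.00671). This was a comparison in which 48.4% of all miRNAs were called, and the doses of the rats differed between the slides. Without male 17 at 1500 ppm the difference of rno-miR-451-5p was 0.36 and was no longer called (limma adjusted p = 0.0664). Within females, slide 3 (8 rats) exceeded slide 2 (4 rats) by 0.61 ± 0.17 for rno-miR-144-3p and 0.65 ± 0.16 for rno-miR-451-5p (limma adjusted p = 0.0232 and 0.0109), where 11.7% of all miRNAs were called. Leaving out control female 21 ended these calls (0.50 and 0.56, limma adjusted p = 0.114 and 0.0593), and leaving out control female 23 ended that of rno-miR-144-3p (0.59, limma adjusted p = 0.0727). What the slides differ in besides their rats was not tested, and slide cannot be told apart from sex and dose except through male 13 and female 26.

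On slide 2, the only slide with both sexes, the 4 males had 1554 (male 13, 1000 ppm), 1547, 923 and 1634 (males 16, 17 and 18, 1500 ppm) for rno-miR-451-5p. The 4 females had 948, 1204 and 1087 (control females 21, 22 and 23) and 1343 (female 26, 600 ppm). The same males had 236, 216, 123 and 231 for rno-miR-144-3p, and the same females 128, 168, 153 and 194. In each miRNA, 3 of the 4 males were above all 4 females and male 17 was below them. Males exceeded females there by 0.28 ± 0.19 and 0.29 ± 0.20 (log2, SE, limma adjusted p = 0.502 for each), which was not called, while 8.83% of all miRNAs were.

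The probes of a miRNA did not shift equally between slides. Each of the pair has 2 probes on the array, named here by whether their signal was the lower or the higher. On the higher rno-miR-451-5p probe the slides overlapped. Its scaled intensity ran from 2012 to 3050 on slide 1, from 1444 to 2500 on slide 2 and from 1860 to 3528 on slide 3. The medians were 2252, 1956 and 2600, highest on slide 3. In males, slide 1 exceeded slide 2 by 0.94 ± 0.17 on the lower rno-miR-451-5p probe (limma adjusted p = 3.8e-05) and by 0.17 ± 0.16 on the higher one (limma adjusted p = 0.41), against a background of 52.8% of 555 probes. For rno-miR-144-3p the shifts were 1.43 ± 0.17 and 0.79 ± 0.18 (limma adjusted p = 1.65e-07 and 0.000571). In females, slide 3 exceeded slide 2 by 0.58 to 0.72 on all 4 probes, each of them called, with 17.5% of probes called in all.

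**Figure D3:**
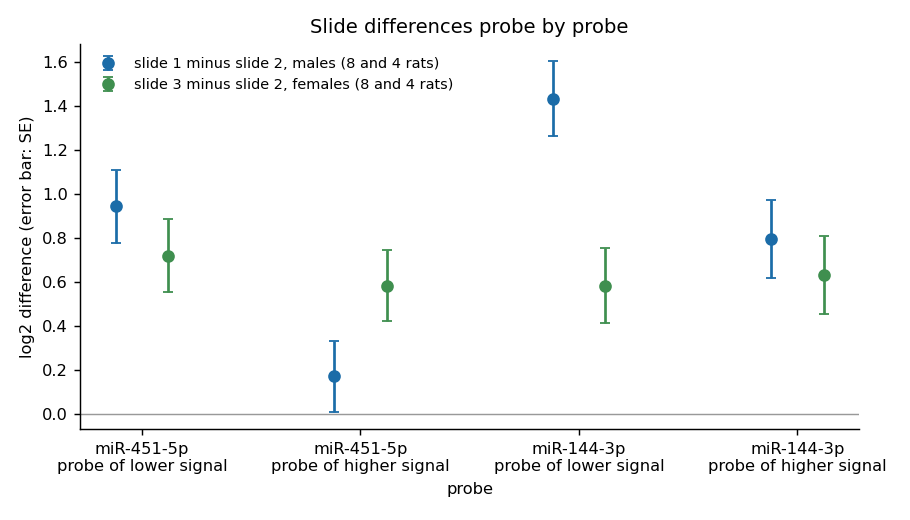
Log2 difference between slides (y axis, error bars SE) for each probe of rno-miR-451-5p and rno-miR-144-3p (x axis), for slide 1 minus slide 2 in males (blue) and slide 3 minus slide 2 in females (green). The green points lie together between 0.58 and 0.72, while the blue points spread from 0.17 to 1.43.

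Over all rats, males exceeded females in rno-miR-144-3p by 0.63 ± 0.19 (log2, SE, n = 12 against 12, limma adjusted p = 0.0151), and in rno-miR-451-5p by 0.22 ± 0.15, which was not called (limma adjusted p = 0.238). The background was 43.8% of all miRNAs. With slide as a block the differences were 0.31 ± 0.30 and 0.35 ± 0.29 (limma adjusted p = 0.596 and 0.518), with 3.53% of all miRNAs called and no member among them.

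The response to dose differed between the sexes in the fit without slide. At 1500 ppm the 3 males had 216, 123 and 231 for rno-miR-144-3p against 360, 378 and 548 in the 3 control males, while the 3 females had 292, 172 and 262 against 128, 168 and 153 in the 3 control females. The exposed males were thus all below, and the exposed females all above, the controls of their sex. For rno-miR-451-5p the males had 1547, 923 and 1634 against 1793, 1761 and 2601, and the females 2125, 1233 and 1805 against 948, 1204 and 1087. The order was the same as for rno-miR-144-3p in each sex.

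In males rno-miR-144-3p fell by 1.20 ± 0.27 on the log2 scale at 1500 ppm (SE, n = 3 against 3, limma adjusted p = 0.00177), a comparison with 36% of all miRNAs called, and rno-miR-451-5p differed by -0.61 ± 0.24 (limma adjusted p = 0.0545). The difference of rno-miR-451-5p was called when male 16 or 18 or female 36 or 37 at 1500 ppm was left out (-0.76 to -0.61, limma adjusted p 0.036 to 0.0499), and under 6 of 14 other settings. With normexp background correction the call of rno-miR-144-3p was lost (-0.86, limma adjusted p = 0.113). At the same dose the female differences were 0.67 ± 0.27 and 0.64 ± 0.24, with 0% of miRNAs called by limma and 39 at an unadjusted p under 0.05, these 2 among them. The female differences were 0.55 ± 0.27 and 0.59 ± 0.24 at 600 ppm and 0.78 ± 0.27 and 0.82 ± 0.24 at 1000 ppm (SE, n = 3 against 3, limma adjusted p 0.424 for each, then 0.111 and 0.0654), again with 0% of miRNAs called and with 29 and 51 at an unadjusted p under 0.05. In males they were 0.04 ± 0.27 and 0.07 ± 0.24 at 600 ppm (0% called, 15 at an unadjusted p under 0.05) and -0.31 ± 0.27 and -0.17 ± 0.24 at 1000 ppm (1.06% called), with no member called by limma. The male minus female response at 1500 ppm was -1.87 ± 0.38 for rno-miR-144-3p and -1.25 ± 0.34 for rno-miR-451-5p (limma adjusted p = 0.0036 and 0.00865, background 35.3%), and under normexp neither was called (-1.30 and -1.16, limma adjusted p = 0.129 for each). The F test of dose by sex over all doses gave 8.94 and 5.22 (limma adjusted p = 0.0143 and 0.0396, background 25.1%). The call of rno-miR-451-5p in that F test was lost when any of 8 rats was left out, namely control male 3, control females 21 and 23, male 7 and female 28 at 600 ppm, and male 17 and females 36 and 38 at 1500 ppm (F 3.83 to 4.98, limma adjusted p 0.0502 to 0.094).

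The contrasts at 1500 ppm lay across slides. The control males were on slide 1 and the males at 1500 ppm on slide 2. The control females were on slide 2 and the females at 1500 ppm on slide 3. The males at 600 ppm were on slide 1 with the control males. Their differences, 0.04 for rno-miR-144-3p and 0.07 for rno-miR-451-5p, were the same with slide as a block. The design fixed this, since a slide term cannot change a contrast inside slide 1. With slide as a block the male minus female response at 1500 ppm was -0.83 ± 0.64 for rno-miR-144-3p and -0.53 ± 0.61 for rno-miR-451-5p (log2, SE), and the F values were 0.57 and 0.31 (limma adjusted p = 0.906 and 0.96). Limma then called 0 of 283 miRNAs (0%) in the F test and in the response at 1500 ppm, with 12 and 9 at an unadjusted p under 0.05. In males at 1500 ppm the blocked differences were -0.42 ± 0.45 and -0.29 ± 0.43, not called, with 0% called and 4 at an unadjusted p under 0.05. In females they were 0.41 ± 0.45 and 0.24 ± 0.43, with 0% called by limma and 25 at an unadjusted p under 0.05. The blocked female differences were 0.38 ± 0.35 and 0.32 ± 0.34 at 600 ppm, and 0.53 ± 0.45 and 0.41 ± 0.43 at 1000 ppm. Limma called 0% of miRNAs there, with 24 and 9 at an unadjusted p under 0.05. In males at 1000 ppm they were -0.05 ± 0.28 and -0.07 ± 0.27, not called, with 2 of 283 miRNAs called. On the probes, the difference of the males at 1500 ppm from control was -0.99 ± 0.27 on the lower rno-miR-451-5p probe and -0.22 ± 0.23 on the higher (limma adjusted p = 0.00509 and 0.512, background 42.7% of probes).

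Within each slide, the levels of the pair went up and down together from rat to rat. On slide 1 control male 3 was highest in both and male 6 at 600 ppm lowest in both. On slide 2 male 17 was lowest in both, and the 3 other males were the highest in both. On slide 3 female 33 at 1000 ppm was highest in both and female 37 at 1500 ppm lowest in both. Pearson's r between the log2 levels was 0.965 for slide 1, 0.994 for slide 2 and 0.969 for slide 3 (n = 8 each, two-sided exact permutation p = 0.00129, 7.44e-05 and 4.96e-05, adjusted 0.00774, 0.00067 and 0.00067 over the family of 18 correlations). Spearman's rho was 0.905, 0.976 and 0.976 (exact permutation p = 0.00456, 0.000397 and 0.000397, adjusted 0.0205, 0.00357 and 0.00357). Without the 2 rats farthest from the median of rno-miR-451-5p, r was 0.889, 0.985 and 0.917 over 6 rats each.

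No pooled r is given over the raw levels because slide 1 lies apart for rno-miR-144-3p. On slide 1 the log2 level of rno-miR-144-3p minus that of rno-miR-451-5p in the same rat averaged -2.27 ± 0.07 (SD, n = 8), on slide 2 -2.83 ± 0.06 and on slide 3 -2.88 ± 0.08, so the spread of that difference inside a slide was small beside the step from slide 1 to the others. After slide means were taken out, r over the 24 rats was 0.974 and rho 0.958, and the permutation p within slides was 1e-05, the smallest that 1e+05 draws can give. The array's 75th percentile before scaling, a measure of overall signal, had r from -0.24 to 0.54 with the pair on the 3 slides, none of which passed (adjusted exact permutation p from 0.312).

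**Figure D4:**
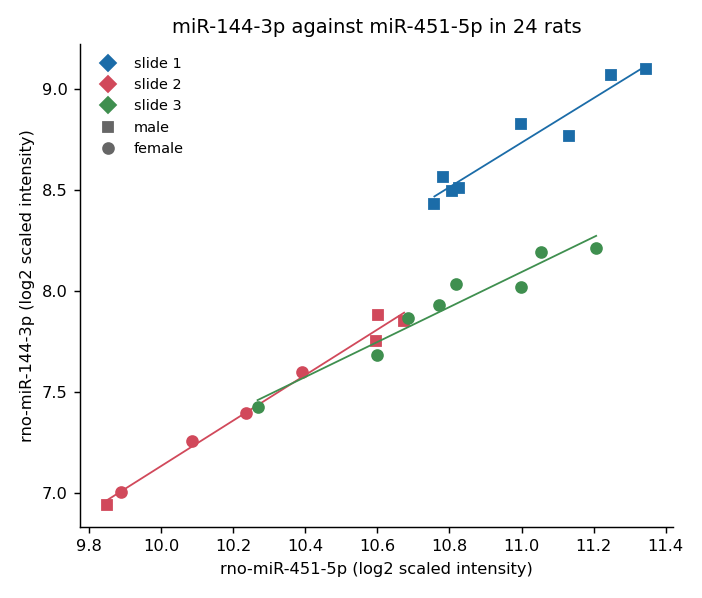
Log2 scaled intensity of rno-miR-144-3p (y axis) against rno-miR-451-5p (x axis) in 24 rats, coloured by slide, with squares for males, circles for females and a least-squares line for each slide. Rats line up closely on each slide (r of 0.965, 0.994 and 0.969), and the line of slide 1 lies above those of slides 2 and 3.

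rno-miR-144-5p, the other arm of the miR-144 hairpin, was near the floor of 11.3 in most rats and moved in the same direction. Its highest value on each slide was 13.4 on slide 1, in control male 3, 13.9 on slide 2, in male 18 at 1500 ppm, and 18.3 on slide 3, in female 33. The rats lowest in the other members, male 6, male 17 and female 37, all stood at the floor, and 1 other rat, male 11 at 1000 ppm, did too. The value of 18.3 came from an array where most of its spots were not called above background. On slide 2 its r was 0.859 with rno-miR-451-5p and 0.866 with rno-miR-144-3p (n = 8, exact permutation p = 0.009 and 0.00697, adjusted 0.0324 and 0.0314). On slide 1 r was 0.743 and 0.63, and on slide 3 0.686 and 0.533, none of which passed after adjustment (exact permutation p 0.0183 to 0.179, adjusted 0.0549 to 0.312). Without slide in the fit and at the settings used here, limma called it in no comparison, but under other settings it was called between slides, in males at 1500 ppm and in the male minus female response, with signs that differed between settings.

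Few other miRNAs followed the pair once slide means were removed. Among 282 miRNAs, the median r to rno-miR-451-5p after slide means was 0.05, and rno-miR-144-3p was the only one above 0.8. Next came rno-miR-144-5p with 0.69, and 6 in all were above 0.5. Of the miRNAs that are no members and stood above background on all arrays, the most alike were rno-miR-18a-5p (r = 0.66), rno-miR-93-5p (0.64), rno-miR-218a-5p (0.54), rno-miR-17-5p (0.50) and rno-let-7i-3p (0.47), which describe 24 rats that share slides and scaling. On single slides the r of these 5 ran from 0.08 (rno-miR-17-5p, slide 1) to 0.96 (rno-miR-93-5p, slide 3). When slide means were left in, 41 of the 282 had r above 0.5 and 28 had r below -0.5, and rno-miR-144-5p had 0.37. The order of the miRNAs that are no members was then different, with rno-miR-22-5p (0.70), rno-miR-872-3p (0.69), rno-miR-365-3p (0.69), rno-miR-17-1-3p (0.68) and rno-miR-152-3p (0.68) leading. On slide 1 alone these 5 had r between -0.07 and 0.17. rno-miR-101a-3p and rno-miR-101b-3p, which share bases 2 to 7 with rno-miR-144-3p, had r of -0.24 and -0.07 after slide means.

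**Figure D5:**
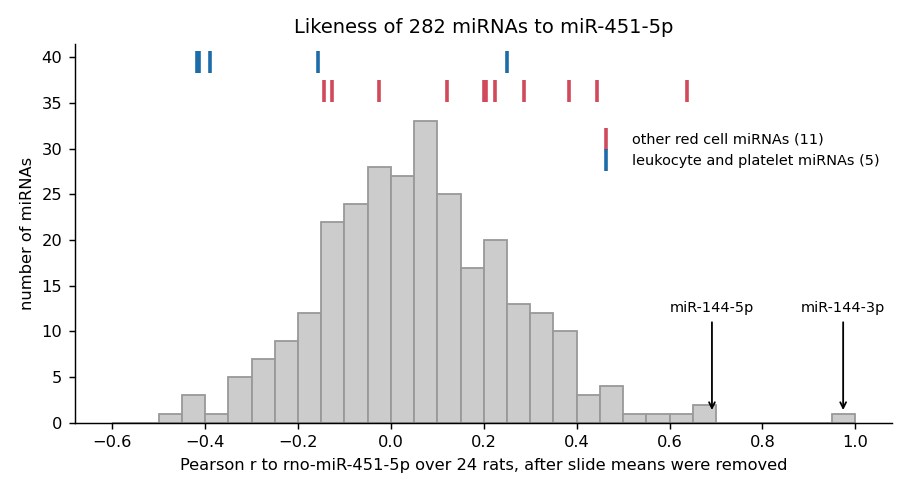
Number of miRNAs (y axis) by their Pearson r to rno-miR-451-5p over 24 rats after slide means were removed (x axis), with arrows at rno-miR-144-3p and rno-miR-144-5p and ticks for 11 other red cell miRNAs (red) and 5 leukocyte and platelet miRNAs (blue). rno-miR-144-3p stands alone at 0.97, and the red ticks run from -0.14 to 0.64.

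Other miRNAs that red cells and reticulocytes hold in quantity, but that many tissues make as well, did not share this pattern to the same degree. All 11 on the list passed the filter. Their median r to rno-miR-451-5p after slide means was 0.20, from -0.14 for rno-miR-363-3p to 0.64 for rno-miR-93-5p. None of the 11 was called at 600, 1000 or 1500 ppm, with median log2 differences of -0.0021, -0.0011 and 0.04 beside 0.02, -0.01 and 0.0021 over all miRNAs. The 2 with the smallest p at 1500 ppm were rno-miR-22-3p (0.32 ± 0.15, adjusted p = 0.498 by limma) and rno-miR-185-5p (0.15 ± 0.08, adjusted p = 0.50). In males, 8 of the 11 were called lower and 1 higher on slide 1 than on slide 2, where 48.4% of all miRNAs were called, with a median of -0.26 beside -0.03 over all miRNAs, which is the opposite direction from the pair. Their summed scaled intensity ran from 8447 to 9506 on slide 1, from 10914 to 11698 on slide 2 and from 10413 to 11807 on slide 3. In such a sum the miRNAs of the brightest signal weigh most.

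Of 8 miRNAs that act in red cell development, such as rno-miR-221-3p and rno-miR-222-3p, which hold down the receptor Kit, 7 passed the filter and none was called at any dose. Their median r to rno-miR-451-5p was 0.07, and the lowest p at 1500 ppm were those of rno-miR-210-3p (0.50 ± 0.16, adjusted p = 0.199 by limma) and rno-miR-24-3p (0.09 ± 0.06, adjusted p = 0.50), a hypoxia miRNA and a regulator of the activin receptor.

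White cells and platelets travel in the same blood, and their miRNAs were looked at beside the pair. Of 6 on the list, 5 were on the array and passed the filter, all of them above background on 24 arrays, rno-miR-223-3p of neutrophils, rno-miR-142-3p and rno-miR-142-5p of all blood lineages, rno-miR-150-5p of lymphocytes and rno-miR-146a-5p. Their r to rno-miR-451-5p after slide means was -0.16, -0.41, -0.39, -0.42 and 0.25. Their summed scaled intensity ran from 4159 to 5579 in control rats, 3804 to 4560 at 600 ppm, 3837 to 5309 at 1000 ppm and 3988 to 5237 at 1500 ppm, and the groups overlapped. None was called at any dose, and the 2 with the smallest p at 1500 ppm were rno-miR-142-5p (-0.22 ± 0.14, adjusted p = 0.50 by limma) and rno-miR-150-5p (0.08 ± 0.10, adjusted p = 0.748). The part of white cells in the level of the pair was not tested.

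After slide means were removed, markers of solid lung tissue varied apart from the pair as well. The 8 lung epithelium miRNAs had a median r of 0.03, with rno-miR-449a-5p of ciliated cells highest at 0.33, and the 2 endothelial arms rno-miR-126a-3p and rno-miR-126a-5p had 0.21 and 0.22. Of 7 striated muscle miRNAs 4 passed the filter, with r from -0.11 to -0.02, and the liver miRNA rno-miR-122-5p had -0.03. None of these was called at any dose. In the epithelium list the lowest p at 1500 ppm were those of rno-miR-141-3p (0.08 ± 0.05, adjusted p = 0.506) and rno-miR-429 (0.13 ± 0.09, adjusted p = 0.541), and in the muscle list those of rno-miR-499-5p (-0.15 ± 0.17, adjusted p = 0.732) and rno-miR-133b-3p (0.41 ± 0.48, adjusted p = 0.742), all by limma. The endothelial rno-miR-126a-5p differed by -0.43 ± 0.25 (adjusted p = 0.50) and rno-miR-126a-3p by -0.0010 ± 0.07 (adjusted p = 0.992), and rno-miR-122-5p by -0.20 ± 0.44 (adjusted p = 0.863). With slide left in, rno-miR-126a-5p shifted in the same direction as the pair. Slide 1 exceeded slide 2 by 0.99 in males, and slide 3 exceeded slide 2 by 0.24 in females (limma adjusted p = 2.08e-12 and 0.00727). Males exceeded females by 0.59 (limma adjusted p = 0.0016). The other arm, rno-miR-126a-3p, was called in neither slide comparison (-0.0039 and 0.02).

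The pair was among the more variable miRNAs of the lung. With slide means removed, the SD between rats was 0.30 for rno-miR-144-3p and 0.29 for rno-miR-451-5p on the log2 scale, against a median of 0.11 over the 211 miRNAs above background on all arrays, and they ranked 23 and 27 among these. Within dose groups, with slide left in, the SD was 0.60 and 0.40 against a median of 0.18 over the 283, and the ranks were 10 and 29. The highest rat exceeded the lowest by 4.46-fold in rno-miR-144-3p and by 2.82-fold in rno-miR-451-5p over all slides, and by 1.502-fold to 1.92-fold within single slides.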

How the data were processed

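Lung total RNA of 24 rats was measured on single-colour Cy3 miRNA arrays. Per the file headers, the deposited intensity of each spot came from Feature Extraction 11.5.1.1, corrected for background and not normalized between arrays, and the headers name the build rn4. The authors' intensity of each miRNA in the deposited summary, 1 value for each array, equalled the total gene signal wherever it was above 1, was not normalized and served as an alternative. Samples were grouped by the dose and sex in the labels, and slide was read from the files. Nothing in the labels says how the slides were filled. The paper supplied does not describe these arrays.

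Control and outlier-flagged spots were dropped. To scale the arrays, each signal was divided by the array's 75th percentile, taken over the 394 probes that all 24 arrays detected, and then multiplied by 865. Values under 11.3 were set to that floor (8.59% of kept spots), so changes of low miRNAs are understated. Log2 values were averaged over spots and over the probes of a miRNA. The filter kept probes with over 50% of spots above background in 6 or more arrays, which left 555 probes and 283 miRNAs. limma 3.58.1 in R 4.3.3 (two-sided, Benjamini-Hochberg over all 283, threshold 0.05) was fitted on all arrays with 20 residual degrees of freedom for the dose comparisons. The fits were tested on simulated data. Correlations were tested within slides by exact permutation. Sequences came from the RefSeq table of GRCr8, hairpins were folded with RNAfold 2.7.2, and figures were drawn with matplotlib 3.10.9.

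The named miRNAs were the members, the 5 most like rno-miR-451-5p by each of 2 measures, and, from each list, the 2 with the smallest p at 1500 ppm. Members and lists were chosen with earlier results of these data known. The number of arrays limits the precision. Each rat gave 1 array, so p-values cover the spread between rats and between arrays together.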

Additional observations from a re-analysis of the deposited data

Results flagged for a closer look

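For the pair, 4 values are given because a test of the difference between the male and female responses called them. The dose by sex F was 8.94 for rno-miR-144-3p and 5.22 for rno-miR-451-5p (limma adjusted p = 0.0143 and 0.0396), in a test that called 25.1% of all miRNAs. The male minus female response at 1500 ppm was -1.87 ± 0.38 for rno-miR-144-3p and -1.25 ± 0.34 for rno-miR-451-5p on the log2 scale (SE, adjusted p by limma 0.0036 and 0.00865), where 35.3% of all miRNAs were called. After blocking on slide the F values were 0.57 and 0.31 and no member was called. The responses at 1500 ppm were then -0.83 ± 0.64 and -0.53 ± 0.61, with a larger SE than without slide. In that fit only male 13 and female 26 tell slide apart from sex and dose. In 12 groups of 6 rats searched for a lone high or low rat (3 members in 4 dose groups), none was found. Each group mixed sexes and slides, so a rat that stood apart only within its sex or slide could be missed.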

How the results depend on the processing

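No alternative called a member at 600, 1000 or 1500 ppm or in the dose trend, with 0 to 0 when single rats were left out. Near 0 the sign was not stable. rno-miR-451-5p at 1500 ppm was -0.014 after quantile normalization, -0.24 without scaling, -0.21 from the series table and -0.14 on the dimmest probe, and -0.11 to 0.18 with single rats left out, and its trend was -0.11 without scaling, -0.087 from the series table, -0.080 on the dimmest probe and -0.072 to 0.12 with single rats left out. rno-miR-144-3p turned positive with slide as a block (0.17 at 1500 ppm, 0.12 in the trend) and as a random block (0.10 and 0.082). Without scaling the median of all miRNAs was -0.22 at 1500 ppm and -0.12 in the trend, and less that median rno-miR-451-5p was -0.018 and 0.0087. The median also moved by over 0.1 between slides and in the sexes taken apart, up to -0.73 in the male minus female response at 1500 ppm, where the pair less the median was -1.39 and -2.01.

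The calls between sexes and slides moved more. Against 1 member called male against female, 0 were called under normexp, with the brightest probe (rno-miR-451-5p -0.0051), from the series table, with no filter, and with slide as a block or random block, and 1 to 1 with single rats left out. Against 2 in the dose by sex interaction, 1 was called with the percentile over all probes, the brightest probe, the total gene signal and no filter, 0 under normexp and with slide as a block or random block, and 1 to 2 with single rats left out. Against 2 between slides 1 and 2 in males, 1 was called with the brightest probe, 3 after quantile normalization and with a second normexp fit that left out spots far under background, and 1 to 2 with single rats left out. Against 2 between slides 3 and 2 in females, 1 was called with no filter and with the second normexp fit, and 0 to 2 with single rats left out. Plain normexp also called 2 there, but these were rno-miR-451-5p and rno-miR-144-5p, since rno-miR-144-3p was 0.074 (limma adjusted p = 0.755). On slide 2 no alternative called a member between the sexes (0 to 0 with single rats left out), and under normexp rno-miR-144-3p was -0.11. At 1500 ppm in males, rno-miR-451-5p was called under 6 of 14 alternatives (-1.30 to -0.57). The call of rno-miR-144-3p there was lost under normexp (-0.86) and with slide as a block (-0.42) or random block (-0.84), and these settings also ended both calls of the male minus female response, as did the brightest probe for rno-miR-451-5p (-0.79). rno-miR-144-5p, near the floor, was called in males at 1500 ppm without scaling (-0.40), with the total gene signal (-0.93), from the series table (-2.15) and, with the opposite sign, with the second normexp fit (0.52), which also called its male minus female response (0.66). The cause of these changes was not tested.

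The r of the pair was 0.947 to 0.981 on slide 1, 0.992 to 0.997 on slide 2 and 0.932 to 0.98 on slide 3 with single rats left out. It fell on slide 2 under normexp, to 0.353, where rno-miR-451-5p and rno-miR-144-5p had -0.10. On the array of female 26 at 600 ppm the lowest spot less its local background was -58820 units, and the median corrected intensity was 733, against 61.4 to 119 on the other arrays. Single values of the pair kept their direction and their side of the threshold in 295 of 344 cases, not counting left-out rats, and 13 changed sign. These cases are the limma comparisons and the exact permutations at each dose, the latter by unadjusted p. No paired analysis was possible because the rat numbers differ between groups. The dimmest probe, the second normexp fit and slide blocks in the interaction were chosen after seeing the data. Values of rno-miR-144-5p near the floor limit its correlations, and the small overlap of slides limits every comparison across them.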
